A study of Mus musculus with 16 samples.

Results

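The autophagy genes described here are 10 genes that act at successive steps of macroautophagy: Ulk1, Becn1, Wipi1, Atg7, Atg5, Atg12, Map1lc3a, Map1lc3b, Gabarapl1 and Sqstm1. They were taken by symbol from 2 expression tables, 1 of mouse liver and 1 of mouse white adipose tissue, each with 22322 genes, and all 10 were found in both. All animals were DIO (diet-induced obese) mice. The vehicle arm is labelled HFD, and the halofuginone arm, labelled H100, received the drug into the peritoneal cavity at 100 μg/kg, once every 2 days. Tissue was taken after 8 weeks, giving 5 vehicle and 5 halofuginone libraries of liver and 3 and 3 of fat. Halofuginone inhibits prolyl-tRNA synthetase. Strain, age, sex, genotype other than the arm, and the fat depot are not given in the sources used here, nor is it given whether a liver and a fat sample with the same number share an animal. The labels do not say that libraries of a group came from separate animals, so p-values measure the spread between these samples.

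Macroautophagy encloses part of the cytoplasm in a membrane that fuses with lysosomes, where the content is degraded. The ULK1 kinase starts the process and the BECN1 lipid kinase complex marks the growing membrane with PI3P, to which WIPI proteins bind. ATG7 then activates ATG12 and the ATG8 proteins (the LC3 and GABARAP families) for conjugation, ATG5 carries ATG12, and receptors such as SQSTM1 tether cargo to the ATG8 proteins. In liver and fat the pathway is known for turning over lipid droplets, mitochondria and protein during fasting, and the transcription factors ATF4 and TFEB are known to act on several of its genes. Transcript levels do not measure autophagic flux.

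Library totals were 20309956 to 31980683 counts in liver and 17070614 to 21387799 in fat, and the 10 genes had 144 to 15057 counts per liver library and 515 to 16421 per fat library. The tissue labels were checked against marker genes. Alb was at 26739 to 98802 CPM (counts relative to the library size, with edgeR's TMM factors) in the liver libraries, and Adipoq, an adipocyte hormone, was at 0 in every halofuginone liver and at most 0.0396 CPM in vehicle. All 5 adipocyte markers together summed to 46.9 to 110.9 CPM in vehicle livers and to 18.3 to 65.3 CPM in halofuginone livers. In fat the 5 adipocyte markers summed to 5241 to 11149 CPM, and the 5 hepatocyte markers to at most 7.05 CPM. Halofuginone liver 1 stood apart from its group. The 5 amino acid response genes Asns, Trib3, Chac1, Sesn2 and Psat1 summed to 26.5 CPM there, to 350 to 478 CPM in the other 4 halofuginone livers, and to 14.9 to 21.6 CPM in vehicle. The 5 hepatocyte markers summed to 96378 CPM in halofuginone liver 1, to 35097 to 74141 CPM in the other 4, and to 101390 to 116250 CPM in vehicle. In fat, vehicle fat 3 stood apart from vehicle fat 1 and 2. Its 8 macrophage markers summed to 17507 CPM (8828 and 6814 in the other 2), its adipocyte markers to 5241 CPM (11149 and 11033) and its 4 endothelial markers to 466 CPM (1032 and 1247). Its 7 NRF2 target genes summed to 1776 CPM (451 and 479.5) and its 5 epididymis markers to 76.2 CPM (0.540 and 1.44). Of these markers Crisp1 was at 63.6 and Adam7 at 12.5 CPM in vehicle fat 3, and Lcn5, Lcn8 and Defb20 were at 0, 0.0577 and 0 CPM. In halofuginone fat 1 to 3 the epididymis markers summed to 12.3, 0.604 and 4.42 CPM.

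In vehicle liver the transcripts per gene length (FPKM) were led by Gabarapl1 (238 ± 40.0, SD, n = 5) and Sqstm1 (232 ± 25.8), whose libraries overlapped. Map1lc3b followed at 64.3 ± 3.66 FPKM, apart from its neighbours in the order. Becn1 (26.5 ± 2.32) and Map1lc3a (25.6 ± 2.31) overlapped, as did Atg5 (17.5 ± 1.10) with Atg7 (15.8 ± 1.75) and Atg7 with Ulk1 (13.1 ± 1.16). Atg12 (6.99 ± 0.516) and Wipi1 (4.91 ± 0.978) were lowest, and did not overlap. In vehicle fat Sqstm1 led alone at 309 ± 49.4 FPKM (SD, n = 3). Gabarapl1 (150 ± 6.44), Map1lc3b (137 ± 23.6), Map1lc3a (106 ± 44.2) and Becn1 (60.3 ± 5.07) came next, each overlapping its neighbour in this run. Atg7 (24.9 ± 3.63), Wipi1 (22.4 ± 5.596), Atg12 (17.0 ± 2.65) and Atg5 (15.6 ± 4.07) formed a further overlapping run, and Ulk1 was lowest at 9.58 ± 1.83 FPKM. The tables of the tissues were deposited separately, and levels were not tested across them.

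The first comparison asked which of the 10 genes differed between halofuginone and vehicle in liver. Transcripts of Atg7, Gabarapl1, Wipi1 and Map1lc3a fell, to between 0.555 and 0.702 of the vehicle level, and 0 of the 10 rose. These 4 encode the activating enzyme of the conjugation system, 2 ATG8 proteins and a PI3P effector. The call of 4 of 10 (edgeR's quasi-likelihood test, Benjamini-Hochberg adjusted p under 0.05) stands beside 23.2% of all 12311 genes tested, with 10.5% called lower and 12.7% called higher. DESeq2 called 5 of the 10, and 29.4% of all genes. The edgeR count was 5 without halofuginone liver 1, 4 without vehicle liver 1, 2 without halofuginone liver 4 and 1 without any 1 of the other 7 livers, and it was 1 with scaling by library size alone. Over all genes edgeR called 5312 of 12422, 1902 of 12410 and 1798 of 12404 without these named livers in that order. Without any 1 of the other 7 it called 1275 to 1921 genes, and with library size alone 3627 of 12311. An unadjusted p under 0.05 was found for 5 of the 10, against 39.1% of all genes. The groups did not overlap for 1 of the 10, Atg7, against 11.7% of all genes. The median log2 fold change of the 10 was −0.13 and that of all genes 0.02, while with scaling by library size alone they were 0.02 and 0.17, so the sign of the median over the 10 turned with the scaling. In bulk tissue, fewer cells of a type and less RNA per cell cannot be told apart. The lower sum of the hepatocyte markers given above was most marked in the same halofuginone livers 2 to 5. Of these 5 markers 4 had negative log2 fold changes, Ttr being called lower, and Tat was called higher. Of 4 endothelial markers, Pecam1 and Cdh5 were called lower and Kdr higher, with a summed 131 to 147 CPM in vehicle and 120 to 155 CPM under halofuginone. The part of these markers in the results was not tested.

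**Figure D1:**
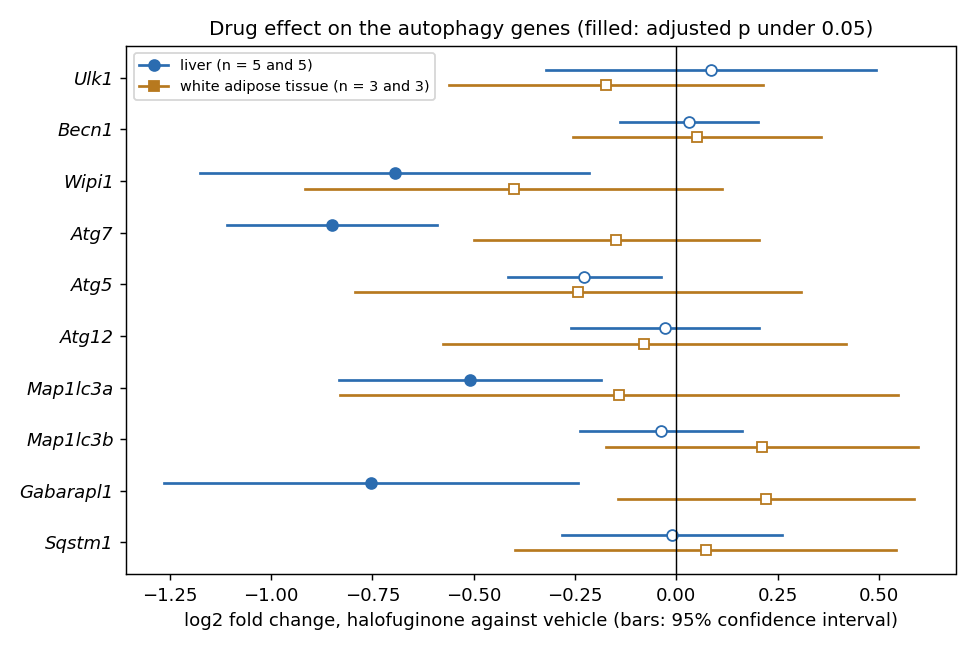
Log2 fold change of each of the 10 genes under halofuginone, in liver (circles) and white adipose tissue (squares), with 95% confidence intervals from edgeR; filled symbols have an adjusted p under 0.05. The 4 filled symbols, Wipi1, Atg7, Map1lc3a and Gabarapl1, are all liver and all below 0.

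The promoter windows of 3 of the genes that fell and of Sqstm1, which was not separated from vehicle, are shown to set side by side the annotated start regions of genes with and without a change. They run from 250 bases before to 50 after the annotated start and come from RefSeq on build GRCm38.p6, which is not the mm39 build named in the submitters' processing notes. A window was found for 7 of the 10 genes. In the letters, capitals mark matches on either strand to CACGTG (E-box), GGGCGG (GC box, CCGCCC on the other strand), TGATGNAA (amino acid response element), TGACNNNGC (antioxidant response element) or TGTTTAC (forkhead element), and no matches overlapped. The windows are Atg7 at chr6:114670846-114671145 on the plus strand, Gabarapl1 at chr6:129532942-129533241 on the plus strand, Wipi1 at chr11:109611340-109611639 on the minus strand and Sqstm1 at chr11:50210771-50211070 on the minus strand.
Atg7: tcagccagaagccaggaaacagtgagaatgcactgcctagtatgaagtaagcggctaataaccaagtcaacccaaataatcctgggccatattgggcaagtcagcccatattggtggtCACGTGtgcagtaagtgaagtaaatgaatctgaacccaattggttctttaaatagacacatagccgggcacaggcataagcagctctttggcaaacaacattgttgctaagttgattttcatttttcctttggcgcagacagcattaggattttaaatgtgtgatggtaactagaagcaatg
Gabarapl1: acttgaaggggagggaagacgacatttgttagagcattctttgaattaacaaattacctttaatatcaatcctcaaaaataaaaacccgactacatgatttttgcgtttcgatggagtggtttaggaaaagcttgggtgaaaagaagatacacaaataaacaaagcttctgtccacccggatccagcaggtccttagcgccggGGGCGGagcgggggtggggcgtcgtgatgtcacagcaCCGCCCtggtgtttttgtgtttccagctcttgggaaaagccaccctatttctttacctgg
Wipi1: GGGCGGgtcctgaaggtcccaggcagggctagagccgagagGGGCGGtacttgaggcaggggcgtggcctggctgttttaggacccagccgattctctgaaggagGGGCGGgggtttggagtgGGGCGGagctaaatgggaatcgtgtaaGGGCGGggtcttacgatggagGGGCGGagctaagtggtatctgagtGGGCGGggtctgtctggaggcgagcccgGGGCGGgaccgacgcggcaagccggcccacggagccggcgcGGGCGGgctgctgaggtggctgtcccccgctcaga
Sqstm1: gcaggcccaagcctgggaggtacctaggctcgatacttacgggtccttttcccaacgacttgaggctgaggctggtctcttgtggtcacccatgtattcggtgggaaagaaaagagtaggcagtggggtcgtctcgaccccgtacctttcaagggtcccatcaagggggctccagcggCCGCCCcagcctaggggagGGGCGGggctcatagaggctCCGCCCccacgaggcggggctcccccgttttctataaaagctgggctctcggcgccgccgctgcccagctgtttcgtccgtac

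The Atg7 window held 1 E-box, 132 bases before the start, no GC box, and a GC content of 42.7% with 4 CpG sites. The Gabarapl1 window held 2 GC boxes and 46.3% GC with 12 CpG sites. The Wipi1 window held 9 GC boxes and the Sqstm1 window 3, at 69.0% and 63.3% GC, against a median of 52.7% over all 32851 windows in the table. An E-box was in 2 of the 7 windows, Atg7 and Atg5, and in 7.15% of all windows. A GC box was in 6 of the 7, all but Atg7, and in 35.7% of all windows. The antioxidant response element letters were in 1 of the 7, Map1lc3b, and in 12.4% of all windows. The amino acid response element and forkhead letters were in 0 of the 7, and in 3.97% and 3.65% of all windows. A match describes the letters in a window and is not a site shown to be bound. Whether the annotated starts of these windows, that of Atg7 included, are the starts used in liver or fat was not tested.

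The genes of the first steps were not separated between the arms in liver. Ulk1 (ENSMUSG00000029512), the initiating kinase, was at 67.2, 72.6, 80.2, 60.5 and 64.9 CPM in vehicle livers 1 to 5 and at 69.6, 46.1, 61.3, 102 and 87.5 CPM in halofuginone livers 1 to 5. Halofuginone livers 4 and 5 lay above all vehicle livers and halofuginone liver 2 below them. The log2 fold change was 0.09 (95% confidence interval −0.32 to 0.49, edgeR adjusted p 0.763). Becn1 (ENSMUSG00000035086), the core of the lipid kinase complex, was at 49.1 to 50.9 CPM in vehicle and 44.8 to 55.7 CPM under halofuginone. Its log2 fold change was 0.03 (−0.14 to 0.20, edgeR adjusted p 0.794), an interval that does not reach the fold change of any of the 4 genes that fell.

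Wipi1 (ENSMUSG00000041895), which binds PI3P on the growing membrane, fell in liver. It was at 9.39, 15.7, 14.5, 11.2 and 11.2 CPM in vehicle livers 1 to 5 and at 12.4, 6.45, 6.73, 5.56 and 7.22 CPM in halofuginone livers 1 to 5. Halofuginone liver 1 lay inside the vehicle range and the other 4 lay below it. This was a log2 fold change of −0.70 (SE 0.22 and edgeR adjusted p 0.0415), and −0.95 without halofuginone liver 1 (adjusted p 0.000857). The call held without vehicle liver 1 too, and was lost without any of the other 8 livers in turn (edgeR adjusted p up to 0.0992).

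Of the conjugation genes, Atg7 (ENSMUSG00000030314), the activating enzyme of both conjugation reactions, fell furthest. It was at 38.3, 44.8, 34.7, 45.1 and 40.5 CPM in vehicle livers 1 to 5 and at 28.8, 21.4, 19.6, 21.6 and 21.6 CPM in halofuginone livers 1 to 5. All 5 halofuginone livers lay below every vehicle liver, and halofuginone liver 1 was the highest of the 5. The mean went from 40.7 ± 4.40 to 22.6 ± 3.57 CPM (SD, n = 5 each), 0.555 of the vehicle level (95% confidence interval 0.464 to 0.664). Its log2 fold change of −0.85 (SE 0.12) had an edgeR adjusted p of 0.00317, rank 52 of the 12311 genes by p. The call held without each of the 10 livers in turn, with log2 fold changes from −0.97 to −0.80.

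Atg5 (ENSMUSG00000038160), which carries ATG12 in the conjugate, was at 46.2, 43.5, 40.4, 43.2 and 43.7 CPM in vehicle livers 1 to 5. Under halofuginone it was at 43.9, 36.1, 35.6, 33.95 and 35.9 CPM. Again halofuginone liver 1 lay inside the vehicle range and the other 4 below it. The log2 fold change of −0.23 (SE 0.09) was not called by edgeR (adjusted p 0.0767), was called by DESeq2 (adjusted p 0.0408), and without halofuginone liver 1 was −0.32 (edgeR adjusted p 0.00332). Atg12 (ENSMUSG00000032905), the ubiquitin-like partner of ATG5, was at 31.2 to 38.1 CPM in vehicle and 28.9 to 42.1 CPM under halofuginone. Its log2 fold change of −0.03 (−0.26 to 0.21, edgeR adjusted p 0.872) did not separate the arms.

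**Figure D2:**
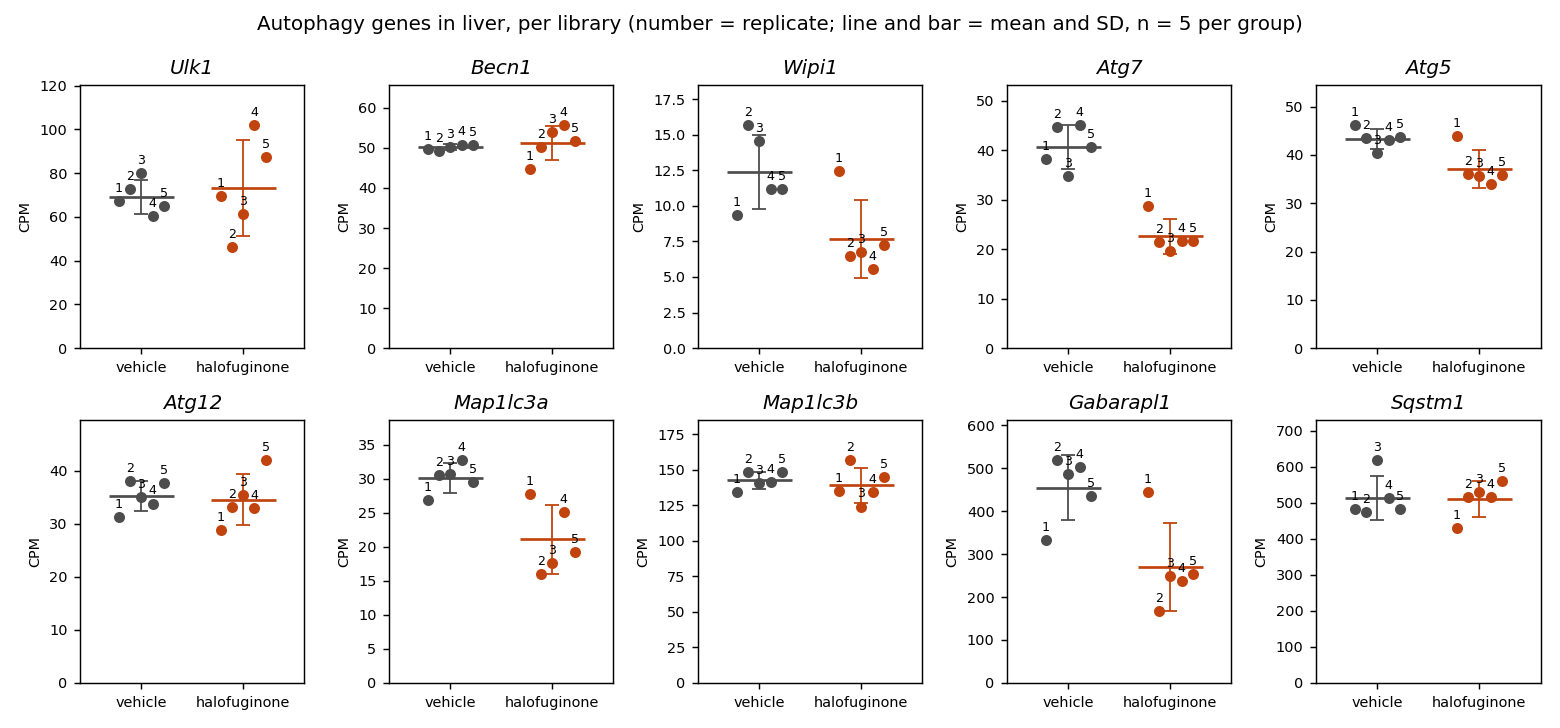
CPM of the 10 genes in each liver library (vertical axis, from 0), with replicate numbers, group means and SD, n = 5 per arm. Halofuginone liver 1 lies within the vehicle range for Gabarapl1, Wipi1, Map1lc3a and Atg5, where the other 4 lie below it.

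Of the 5 ATG8 genes, 2 fell in liver. Gabarapl1 (ENSMUSG00000030161), of the GABARAP family, was at 332.7, 519.6, 485.7, 502.6 and 434.3 CPM in vehicle livers 1 to 5 and at 444.7, 168.5, 248.1, 236.2 and 252.8 CPM in halofuginone livers 1 to 5. Halofuginone liver 1 lay inside the vehicle range and the other 4 below it. This gave a log2 fold change of −0.75 (SE 0.23 and edgeR adjusted p 0.0394), and −1.03 without halofuginone liver 1 (adjusted p 0.000711). The call also held without vehicle liver 1 and was lost without any of the other 8 in turn (edgeR adjusted p up to 0.0923).

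Map1lc3a (ENSMUSG00000027602), an LC3 gene, was at 26.8, 30.6, 30.7, 32.8 and 29.5 CPM in vehicle livers 1 to 5. In halofuginone livers 1 to 5 it was at 27.8, 15.99, 17.6, 25.2 and 19.2 CPM, and the first of these lay inside the vehicle range and the other 4 below it. The log2 fold change was −0.51 (SE 0.15, edgeR adjusted p 0.0314), and −0.65 without halofuginone liver 1 (adjusted p 0.00217). The call held without vehicle liver 1 or halofuginone liver 4 as well and was lost without any of the other 7 (edgeR adjusted p up to 0.0834). Map1lc3b (ENSMUSG00000031812), the LC3 gene most used as an autophagosome marker, was at 134 to 149 CPM in vehicle and 124 to 157 CPM under halofuginone, with a log2 fold change of −0.04 (−0.24 to 0.16, edgeR adjusted p 0.788). A test of the difference between the falls of Map1lc3a and Map1lc3b was not made.

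Summed over the 5 ATG8 genes (with Gabarap and Gabarapl2), liver held 511 ± 53.5 FPKM in vehicle and 476 ± 37.6 FPKM under halofuginone (SD, n = 5 each), and the groups overlapped. FPKM is not scaled by the TMM factors. Fits on FPKM moved the median log2 fold change of all liver genes up by 0.12 or 0.14 from that with TMM. The sum is thus not on the scale of the CPM values, and its difference between the arms was not tested. Gabarapl1 made up 40.8, 49.1, 48.0, 48.5 and 45.5% of this sum in vehicle livers 1 to 5. Under halofuginone it made up 50.2, 22.8, 30.4, 29.6 and 30.0%, so that livers 2 to 5 lay below the vehicle range and liver 1 above it. Gabarap made up 27.7 to 33.99% in vehicle and 44.2 to 48.7% in halofuginone livers 2 to 5, with 27.2% in liver 1. Gabarap itself was not called, with a log2 fold change of 0.22 (SE 0.13 and edgeR adjusted p 0.223). It was at 201 to 224 CPM in vehicle, at 257 to 275 CPM in halofuginone livers 2 to 5 and at 176 CPM in halofuginone liver 1.

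**Figure D3:**
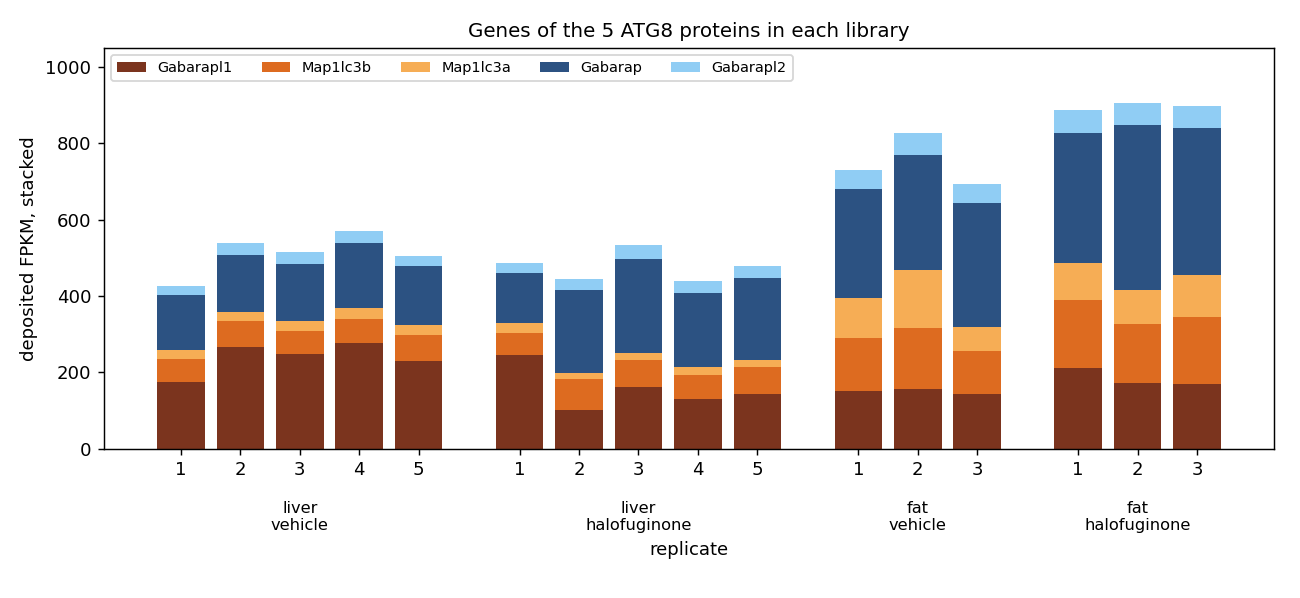
FPKM of the 5 ATG8 genes stacked for each library (vertical axis, from 0), liver and white adipose tissue, by arm and replicate. Gabarapl1 takes 22.8 to 30.4% of the stack in halofuginone livers 2 to 5 and 40.8 to 50.2% in the vehicle livers and halofuginone liver 1.

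Sqstm1 (ENSMUSG00000015837), the cargo receptor that is itself degraded by autophagy and is a target of the transcription factor NRF2, was at 482, 474, 619, 514 and 482 CPM in vehicle livers 1 to 5. Under halofuginone it was at 429, 517, 529, 516 and 561 CPM, and the arms overlapped. The log2 fold change was −0.01 (−0.28 to 0.26, edgeR adjusted p 0.957). The counts of called genes in the lists that follow stand beside 23.2% of all genes called in liver. Of 6 NRF2 target genes tested in liver, 1 was called, Gclc, which encodes an enzyme of glutathione synthesis. Gclc fell by 1.05 on the log2 scale (SE 0.33, edgeR adjusted p 0.0418), with 71.5 to 90.8 CPM in halofuginone livers 2 to 5, 253 CPM in liver 1 and 202 to 276 CPM in vehicle. Of 9 transcription factors listed for the pathway, 2 were called, both higher. Atf4 rose by 0.77 (SE 0.20, edgeR adjusted p 0.0220) and Ddit3 by 2.81 (SE 0.59, edgeR adjusted p 0.0105) on the log2 scale. For both, halofuginone livers 2 to 5 lay above every vehicle liver and liver 1 did not. The log2 fold change of Tfeb was −0.14 (SE 0.16, edgeR adjusted p 0.527). Of the 5 amino acid response genes 4 were called higher, Asns, Trib3, Sesn2 and Psat1, the list that also set halofuginone liver 1 apart.

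Further genes of the pathway were read from 8 lists with 69 genes. In liver 68 were tested and 18 were called, 8 higher and 10 lower, or 26.5%, near the 23.2% of all genes. The median log2 fold change was −0.09. The count was 30 without halofuginone liver 1, 10 without halofuginone liver 3 or 5, and 11 without vehicle liver 4. Over all genes edgeR called 5312 of 12422 without halofuginone liver 1, and 1275 of 12426 or 1403 of 12396 without halofuginone liver 3 or 5. Without vehicle liver 4 it called 1770 of 12402. The counts in the lists thus moved in the same direction as those over all genes. Conjugation enzymes had 5 of 8 called, 2 higher and 3 lower. Lysosome genes had 6 of 20 called, 2 higher and 4 lower, membrane supply and PI3P effectors 3 of 9, and fusion with lysosomes 2 of 6. Among 7 nucleation genes 1 was called, among 12 cargo receptors 1, among 4 initiation genes 0, and among the other 2 ATG8 genes 0. At an unadjusted p under 0.05 the initiation list had 1 and the other ATG8 genes 0.

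The largest rise among these was in Ctsl, a lysosomal cysteine protease. It was at 548, 507, 534, 539 and 472 CPM in vehicle livers 1 to 5 and at 479, 3522, 3298, 3151 and 3168 CPM in halofuginone livers 1 to 5. Halofuginone liver 1 lay inside the vehicle range and the other 4 were far above it. The rise was 2.39 on the log2 scale (SE 0.42, edgeR adjusted p 0.00611). Npc1, which exports cholesterol from lysosomes, was at 94.6 to 132 CPM in vehicle and 197, 338, 587, 330 and 447 CPM in halofuginone livers 1 to 5, with no overlap. It rose by 1.72 on the log2 scale (SE 0.25, edgeR adjusted p 0.00325), while its lysosomal partner Npc2 fell by 0.45 (SE 0.14, edgeR adjusted p 0.0400).

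Epg5, a tether between autophagosomes and lysosomes, rose by 1.32 (SE 0.28, edgeR adjusted p 0.0108) on the log2 scale, and halofuginone liver 1, at 20.8 CPM, lay inside the vehicle range of 20.4 to 25.3 CPM. Among the ATG4 proteases, which trim and recycle ATG8 proteins, Atg4d rose by 0.58 (SE 0.11), whereas Atg4a fell by 0.48 (SE 0.10) and Atg4c by 0.54 (SE 0.16). The edgeR adjusted p-values were 0.00861, 0.0105 and 0.0352. The groups did not overlap for Atg4d, at 15.0 to 22.03 CPM in vehicle and 23.4 to 30.2 CPM under halofuginone, or for Atg4a, at 13.7 to 14.7 and 8.45 to 11.97 CPM. Atg14, the subunit that directs the BECN1 complex to autophagy, fell by 0.61 (SE 0.14, edgeR adjusted p 0.0143), from 21.8 to 34.5 CPM in vehicle to 14.8 to 21.3 CPM, with no overlap. Hexa, a lysosomal hexosaminidase subunit, fell by 0.47 (SE 0.11, edgeR adjusted p 0.0168), also with no overlap. The remaining named calls were Atg16l2 (0.85, SE 0.25) and the glycogen receptor gene Stbd1 (0.70, SE 0.18), both higher, and Wdr45b (−0.61, SE 0.19), lower. Of the 12 named genes, the calls of Ctsl, Npc1, Epg5, Atg4d, Atg14, Atg4a and Hexa held without each liver in turn. Those of Atg16l2, Stbd1, Wdr45b, Atg4c and Npc2 were lost without 8, 3, 6, 8 and 9 of the 10 livers in turn, at edgeR adjusted p-values up to 0.103.

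**Figure D4:**
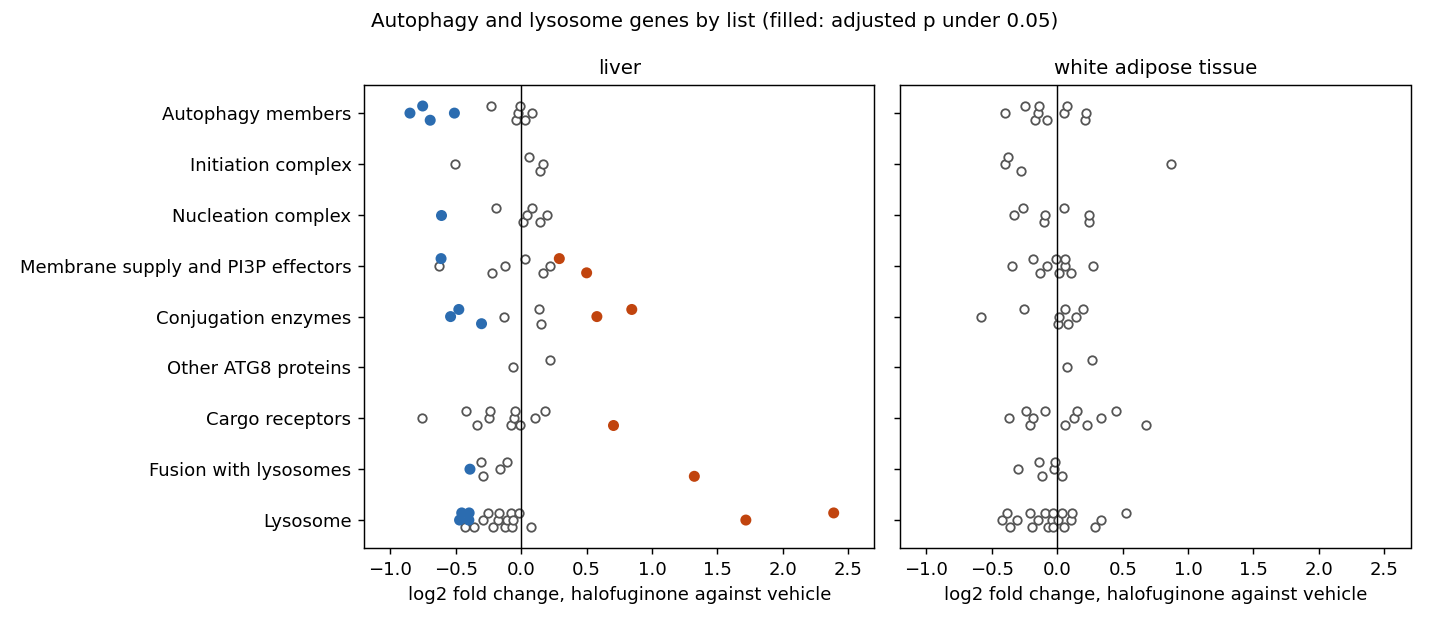
Log2 fold change under halofuginone (horizontal axis) of each tested gene, as 1 point per gene, in rows for the 10 autophagy genes (top) and the 8 further lists, in liver (left) and white adipose tissue (right); filled points have an edgeR adjusted p under 0.05 (orange higher, blue lower). In liver Ctsl (2.39), Npc1 (1.72) and Epg5 (1.32) lie farthest right and the 4 called autophagy genes lie left of 0, and in fat no point is filled.

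The question was then put to white adipose tissue. Of the 10 genes, 0 were called by edgeR, as were 0 of all 14030 genes tested (0% called), 0 of the 10 had an unadjusted p under 0.05 (13.4% of all genes), and DESeq2 called 0 of the 10 (5.15% of all genes). The groups did not overlap for 1 of the 10, Gabarapl1, against 20.6% of all genes. The median log2 fold change of the 10 was −0.11 and that of all genes 0.01, and the median of the 10 turned to 0.02 without vehicle fat 3 and to 0.0088 without vehicle fat 2. Without vehicle fat 3 edgeR again called 0 of the 10, and the values of Atg5 (0.022) and Atg12 (0.039) turned positive. With 3 libraries per arm the 95% confidence intervals were wide, and those of 5 genes (Ulk1, Wipi1, Atg5, Atg12 and Map1lc3a) included the −0.51 seen for Map1lc3a in liver.

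Gabarapl1 was at 279.5, 278.1 and 274.5 CPM in vehicle fat 1 to 3 and at 368.6, 306.1 and 295.1 CPM in halofuginone fat 1 to 3. All 3 halofuginone libraries lay above vehicle, with a log2 fold change of 0.22 (−0.14 to 0.59, edgeR adjusted p 0.587). Wipi1 was at 66.5, 48.2 and 42.1 CPM in vehicle and at 45.5, 33.6 and 39.5 CPM under halofuginone, and the arms overlapped. Its log2 fold change was −0.40 (−0.92 to 0.11, edgeR adjusted p 0.473). Atg7 was at 67.6, 66.6 and 79.5 CPM in vehicle and at 60.7, 61.3 and 70.9 CPM under halofuginone. Halofuginone fat 1 and 2 lay below vehicle and fat 3 inside the vehicle range, with a log2 fold change of −0.15 (−0.50 to 0.20, edgeR adjusted p 0.724).

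The other ATG8 members and Sqstm1 overlapped between the arms in fat. Map1lc3a was at 120, 165 and 73.2 CPM in vehicle and at 105, 99.4 and 120 CPM under halofuginone, and its vehicle libraries were the most spread of the 10 genes relative to their mean. Map1lc3b was at 290, 334 and 254 CPM in vehicle and at 352, 321 and 343 CPM under halofuginone, with a log2 fold change of 0.21 (−0.17 to 0.60, edgeR adjusted p 0.622). Sqstm1 was at 551, 649 and 788 CPM in vehicle and at 727, 763 and 599 CPM under halofuginone, with a log2 fold change of 0.07 (−0.40 to 0.54, edgeR adjusted p 0.912). Ulk1 (−0.17), Becn1 (0.05), Atg5 (−0.24) and Atg12 (−0.08) were not separated either, and the interval of Becn1 was the narrowest of the 10, from −0.25 to 0.36 on the log2 scale.

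**Figure D5:**
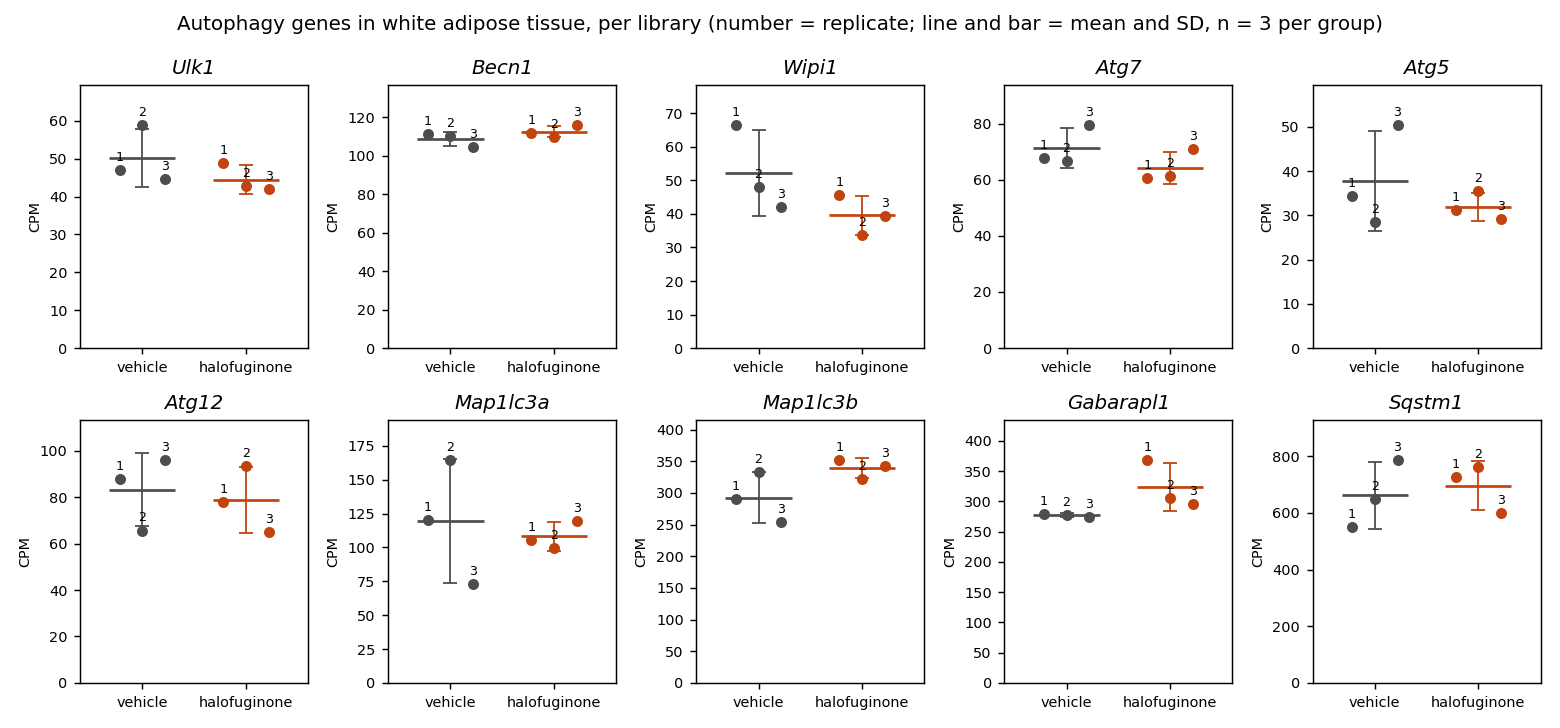
CPM of the 10 genes in each white adipose tissue library (vertical axis, from 0), with replicate numbers, group means and SD, n = 3 per arm. Gabarapl1 is the gene whose arms do not overlap, at 274.5 to 279.5 CPM in vehicle and 295.1 to 368.6 CPM under halofuginone.

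The ATG8 sum in fat was 693 to 827 FPKM in vehicle and 886 to 906 FPKM under halofuginone, with no overlap. Taken singly, 20.6% of all genes tested in fat had groups that did not overlap. None of the summed genes had an unadjusted edgeR p under 0.05. Fits on FPKM moved the median log2 fold change of all fat genes up by 0.062 or 0.067 from that with TMM. The difference in the sum between the arms was not tested. The share of Gabarapl1 in the sum was 20.01 ± 1.06% in vehicle and 20.5 ± 2.80% under halofuginone (SD, n = 3 each). Of the 69 further pathway genes, 0 were called in fat and 2 had an unadjusted p under 0.05, while DESeq2 called 1. The smallest p was that of Atg101. Atg101, a subunit of the ULK1 complex, was at 29.9, 37.8 and 26.3 CPM in vehicle and at 58.8, 64.1 and 48.8 CPM under halofuginone, with no overlap. Its log2 fold change was 0.87 (SE 0.19), and its edgeR adjusted p of 0.171 missed the threshold, while DESeq2 gave 0.00297. The other genes named by the rule were Bnip3 (log2 fold change 0.68) and Neu1 (0.29) above 0 and Atg10 (−0.58) and Ulk2 (−0.38) below it, at edgeR adjusted p-values of 0.387, 0.442, 0.417 and 0.448.

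Of the 9 transcription factors, 7 NRF2 targets and 5 amino acid response genes, 0, 0 and 0 were called by edgeR in fat. An unadjusted edgeR p under 0.05 was found for 3, 2 and 4, against 13.4% of all genes. Atf4 (log2 fold change 1.15) and Ddit3 (2.36) were higher, and Foxo3 (−0.36), Srxn1 and Hmox1 were lower. Asns, Trib3, Chac1 and Sesn2 were higher, each with every halofuginone library above every vehicle library. The 5 amino acid response genes summed to 254, 296 and 154 CPM in vehicle fat 1 to 3. Their sum was 723, 550 and 434 CPM in halofuginone fat 1 to 3. All 8 macrophage markers had negative log2 fold changes and 7 of them an unadjusted edgeR p under 0.05, where 13.4% of all genes had one. With edgeR 0 of the 8 were called, as were 0 of all 14030 genes. Their sum was 8828, 6814 and 17507 CPM in vehicle fat 1 to 3 and 5813, 8113 and 6086 CPM in halofuginone fat 1 to 3. In this sum vehicle fat 3 was far above the rest and the arms overlapped. Taken singly, 6 of the 8 had every halofuginone library below every vehicle library, where groups did not overlap for 20.6% of all genes. Of the 8, 0 were at 0 throughout the fat libraries. Of 5 skeletal muscle markers 2 had positive and 3 negative log2 fold changes, with a median of −0.03. Acta1 made up nearly all of their sum, at 164, 109 and 82.3 CPM in vehicle and 45.4, 54.1 and 47.1 CPM under halofuginone (edgeR adjusted p 0.160), and the other 4 were at most 2.54 CPM in every fat library. The part of these shifts in the values of the autophagy genes was not tested. In liver 1 of the 8 macrophage markers was called, against 23.2% of all genes. This was Gpnmb, which fell by 1.13 on the log2 scale (SE 0.30, edgeR adjusted p 0.0228), and Trem2 was at −0.67 (SE 0.24, edgeR adjusted p 0.0582). The 8 summed to 286 to 374 CPM in vehicle livers, 474 CPM in halofuginone liver 1 and 256 to 311 CPM in the other 4.

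A joint comparison tested for each gene a difference in response between the tissues, taken as its effect in fat minus that in liver in 1 fit of all 16 libraries. Of the 10 genes 0 were called by edgeR, against 0.949% of 14853 genes, and 2 had an unadjusted p under 0.05, against 15.7% of all genes. These were Atg7, with a difference of 0.69 (SE 0.19, p 0.00198, edgeR adjusted p 0.0853), and Gabarapl1, with 0.96 (SE 0.33, p 0.0109, edgeR adjusted p 0.173). DESeq2 called Atg7 alone (0.71, adjusted p 0.0224), where it called 4.63% of all genes. Without halofuginone liver 1 edgeR called both, Atg7 at 0.78 (adjusted p 0.00919) and Gabarapl1 at 1.20 (adjusted p 0.00887). Over all genes it then called 1053 of 14902, where it called 141 of 14853 with all libraries. For Wipi1, Map1lc3a and the other 6 genes the differences lay between −0.28 and 0.34, with edgeR adjusted p-values of 0.589 or more. The fall of Wipi1, Map1lc3a, Atg7 and Gabarapl1 in liver is thus not shown by edgeR in all libraries to be particular to liver.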

How the data were processed

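Gene expression was measured by poly(A) RNA sequencing in 16 libraries. Per the labels' protocols, RNA was extracted with Trizol, captured on oligo(dT) beads and made into libraries with a NEBNext Ultra kit. The submitters' processing notes name fastp 0.18.0, Bowtie2 2.2.8, HISAT2, StringTie 1.3.1, RSEM and build mm39, with no role or order. The annotation, strand, duplicate handling and batches are not given in the sources used here. The authors deposited, per the file headers, counts (whole numbers, not normalized) and FPKM (fragments per gene length and library size) for each library and gene. In 1 to 31 genes per library a count of 0 stood beside an FPKM above 0. Reads of near-identical or overlapping genes are uncertain. Symbols were found for 22267 of 22322 identifiers, and groups came from sample titles.

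From the deposited counts, each tissue was fitted alone, and all libraries jointly for the tissue difference, taken as independent, using edgeR 4.0.16 under R 4.3.3 (TMM, filterByExpr, glmQLFit, glmQLFTest, two-sided, Benjamini-Hochberg over all genes tested, called at adjusted p under 0.05). Standard errors are the log2 fold change over the root of F, and 95% intervals use the t quantile with the test's degrees of freedom. Depth sets a floor of 3 counts, which all 10 genes exceeded, and it covers counting error only. No 2 libraries agreed within sampling noise. The script was tested on simulated data. The genes and lists were chosen with earlier results of these data known. Named were all 10 genes and, from 8 pathway lists, per tissue and direction the 6 called genes with the largest change, or the 3 smallest p-values where none was called, of which 1 gene in fat is not reported here. The transcription factor, NRF2 and amino acid lists are given as counts with the called genes, and in fat with those at an unadjusted edgeR p under 0.05. Gabarap, Tfeb, and the ATG8 sums were chosen for mention after their values were seen. Alternatives were DESeq2 1.42.0, its size factors, library size alone, no filter, a replicate block, 1 fit of all groups, limma 3.58.1 on log2 FPKM (pseudocount 1 or 0.1, mean of at least 1 FPKM) and leaving out each library.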

Additional observations from a re-analysis of the deposited data

Results flagged for a closer look

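Among values of 5 livers, a liver is listed here if it lay farther from its nearest neighbour than 0.71 of the range of the 5. Of 44 such sets, 6 met this. A rate of 1 in 20 would give about 2.2, which takes the sets as independent. The sets come from the same livers, and some of the genes were named because they were called. The 6 can therefore not be weighed against 2.2. In 5 of the 6 the liver was halofuginone liver 1.

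Halofuginone liver 1 was the highest of its group for Atg7 (28.8 CPM, next 21.6 CPM, gap 0.790 of the range), Atg5 (43.9 CPM, next 36.1 CPM, gap 0.781) and Wipi1 (12.4 CPM, next 7.22 CPM, gap 0.757). The same held for the ATG8 protease gene Atg4c (15.3 CPM, next 10.7 CPM, gap 0.862). For the protease gene Ctsl it was the lowest of its group (479 CPM, next 3151 CPM, gap 0.878). In each of these 5 genes it was the halofuginone liver nearest to the vehicle livers. The remaining case was vehicle liver 3, the highest vehicle liver for the cargo receptor gene Sqstm1 (619 CPM, next 514 CPM, gap 0.723).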

How the results depend on the processing

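Of the 4 calls among the autophagy genes in liver, Atg7 was called in all 8 other settings and without each of the 10 livers (edgeR, DESeq2 or limma adjusted p up to 0.0135). The number called was 1 with library size alone, where TMM gave 4, and 1 to 5 when 1 liver was left out: 1 without halofuginone liver 2, 3 or 5 or vehicle liver 2, 3, 4 or 5, 2 without halofuginone liver 4, 4 without vehicle liver 1 and 5 without halofuginone liver 1. Gabarapl1, Wipi1 and Map1lc3a kept a negative log2 fold change in every setting run, but each lost its call with library size alone, Gabarapl1 and Wipi1 with the replicate block, Wipi1 with both limma fits and Map1lc3a with 1 fit of all 4 groups. Of the further pathway genes in liver, 18 were called, 10 with library size alone, 10 or 11 with limma on FPKM (pseudocount 0.1 or 1) and 10 to 30 with 1 liver left out, and the calls of Wdr45b, Atg4c, Atg4a, Hexa and Npc2 were lost with library size alone and with both limma fits. Of all liver genes, 2850 were called with TMM and 3627 with library size alone. With limma on FPKM 2869 or 2866 were called (pseudocount 0.1 or 1), and with 1 liver left out 1275 to 5312. In fat 1 further pathway gene was called with 1 fit of all 4 groups and 1 with DESeq2, where 334 and 723 of all genes were called. Of the tissue differences, 0 were called, 1 with DESeq2 and 0 to 2 with 1 library left out. Over all genes these numbers were 141, 687 and 34 to 1053. Library size alone moved the median of all liver genes by 0.16 and raised the share of calls that were higher from 54.7% to 76.9%, and limma on FPKM moved it by 0.12 or 0.14 and gave 72.8% or 72.7%.

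With the replicate block, 2 of the autophagy genes were called in liver and 12 further pathway genes, and 0 of either in fat. Of all genes, 1901 were called in liver with this block and 0 in fat. Same-numbered samples showed no steady tendency to deviate together (r of −0.05, −0.19, 0.09, 0.12 and −0.02 in liver and 0.18, −0.60 and −0.25 in fat). Different-numbered samples in fat had r from −0.40 to 0.52. With so few pairs these values cannot decide whether same-numbered samples share more than a number. Under this block the tissue differences of Atg5 (0.0053) and Becn1 (0.0047) were positive.

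The signs that turned were all of uncalled values. In liver, library size alone and limma with pseudocounts of 0.1 and 1 gave log2 fold changes of 0.13, 0.12 and 0.11 for Atg12, 0.12, 0.083 and 0.082 for Map1lc3b, and 0.15, 0.14 and 0.14 for Sqstm1. The tissue difference of Becn1 was 0.030 with DESeq2, 0.031 with its size factors and 0.0048 with no filter, and that of Sqstm1 was −0.012 with library size alone. Leaving out 1 library gave in liver −0.11 to 0.0092 for Atg12, −0.015 to 0.055 for Becn1, −0.096 to 0.0078 for Map1lc3b, −0.057 to 0.050 for Sqstm1 and −0.077 to 0.20 for Ulk1. In fat it gave −0.22 to 0.060 for Atg12, −0.41 to 0.022 for Atg5, −0.39 to 0.16 for Map1lc3a and −0.042 to 0.22 for Sqstm1. For the tissue difference it gave −0.20 to 0.036 for Atg12, −0.18 to 0.21 for Atg5, −0.051 to 0.043 for Becn1 and −0.049 to 0.18 for Sqstm1. The causes of these moves were not tested. With 3 libraries per arm, the intervals in fat of Ulk1, Wipi1, Atg5, Atg12 and Map1lc3a included a fall as large as that of Map1lc3a in liver.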
